A study of Pan troglodytes with 8 samples.

Results

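SOX4 and SOX11 are the 2 members of the SOXC group of transcription factors that are best known for their part in making neurons. The regions described here are those of the deposited table whose closest gene is SOX4 or SOX11, together with all regions whose midpoint on the human genome (hg38) falls in a window of 1.0 Mb on chromosome 6 around SOX4 or of 0.9 Mb on chromosome 2 around SOX11. This gave 132 regions for SOX4 and 98 for SOX11, of 211348 regions analysed. Only 2 of the 132 carry SOX4 as their closest gene, and no region carries SOX11. The others are listed under non-coding genes and pseudogenes, so nearly all members were chosen by position, and position does not show that a region acts on either gene.

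Chromatin accessibility was read by bulk ATAC-seq, which counts where a transposase could cut DNA, in cells sorted from cerebral organoids of the chimpanzee induced pluripotent stem cell line SandraA. The organoids were seeded with 9000 cells per well and collected at week 8, give or take 3 days. The 4 sorted populations were radial glia of the apical kind (aRG) and of the basal kind (bRG), basal intermediate progenitors (bIP), and neurons positive for BCL11B (N), all from this 1 line, with no treatment and no genetic change given in the labels. Each population had 2 libraries, 8 in all, with totals between 24913928 and 34845193 counts, and since nothing says that the 2 came from separate cultures, p-values measure only the spread between these samples. Radial glia divide next to or away from the ventricle, intermediate progenitors divide a last few times, and neurons are the product. The loci of the labelled cell types' markers followed the labels in part. Of these, 11 of 11 radial glia marker loci tested were called lower in bIP than in aRG and 10 of 11 in N, while 7 of 9 neuronal marker loci were called higher in N than in aRG and 1, GAP43, was called lower (14.6% of all loci called lower in bIP, and 27.6% higher and 25.7% lower in N). BCL11B itself, the gene that labels the neurons, was not most open in them: its locus gave 62.6 and 55.3 CPM in aRG, 62.1 and 54.7 in bRG, 76.7 and 72.1 in bIP and 54.4 and 47.2 in N, and was called lower in N than in bIP by -0.55 ± 0.10 (adjusted p = 0.0056). Accessibility of a locus is not the level of its RNA or protein. In bIP 7 of the 9 neuronal loci were already called higher than in aRG (16.6% of all loci). Between bIP and N 3 were called higher (NEUROD2, SYT1 and MAPT) and 3 lower (TBR1, BCL11B and RBFOX3), against 13.6% and 15.1% of all loci. Of 8 intermediate progenitor marker loci, 5 were called higher in bIP than in aRG and 0 lower. In N minus bIP 5 of the 8 were called lower and 1, SSTR2, higher.

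SOXC proteins bind DNA through an HMG box and activate transcription. In the mouse cortex, Sox4 works beside the intermediate progenitor factor Eomes, and Sox11 works beside proneural factors as cells become neurons, where both switch on genes of the neuronal cytoskeleton. Both genes have a single exon and sit in broad stretches that hold long non-coding genes but few coding ones. By gene order in chimpanzee assembly NHGRI_mPanTro3-v2.0, the next protein-coding genes are CDKAL1 and PRL around SOX4, and CMPK2 and DCDC2C around SOX11. The non-coding neighbours in the windows include CASC15 and NBAT1, which are known from human neuroblastoma and lie beside SOX4, and SILC1, which in the mouse is needed for Sox11 induction in injured sensory neurons.

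Members are numbered along the chimpanzee genome (panTro6, positions counted from 1), SOX4 regions 1 to 132 over chr6:24115876-25111397 and SOX11 regions 1 to 98 over chr2A:5273936-6143746. Distances are between region midpoints and are counted from the region at the gene's start. For SOX4 this is SOX4 region 39 at chr6:24509568-24511049, which the table places at a distance of 0 from SOX4. For SOX11 it is SOX11 region 50 at chr2A:5651573-5653727, which the table lists under the non-coding gene AC108025.1. With no region named for SOX11, this region was picked as the member with the highest total count of its window. That it holds the SOX11 start is taken from the human gene map and not from the table. A difference is said to be called where edgeR's quasi-likelihood test gave an adjusted p under 0.05 (Benjamini-Hochberg) over all 198227 regions, or all 14067 gene loci, that passed a filter on low counts. Of the members, 126 of 132 for SOX4 and 96 of 98 for SOX11 passed that filter.

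The starts of both genes were open in every population, though for SOX11 the region was picked by its count. SOX4 region 39 gave 42.0 and 41.4 CPM (counts scaled to library size) in aRG, 41.2 and 37.2 in bRG, 40.6 and 43.0 in bIP and 42.2 and 42.0 in N. Both bRG libraries lay just below those of aRG and N, bIP overlapped the others, and no pair was called. On this scale, set by all regions, the log2 fold change was 0.01 ± 0.10 (SE) for N minus aRG (adjusted p = 0.91) and 0.00 ± 0.10 for bIP minus aRG (adjusted p = 0.99). A second scale, set by gene loci alone, moves all values of bIP minus aRG up by 0.22 and of N minus aRG up by 0.21 on the log2 scale. On it the same region stood at 38.2 and 37.7 CPM in aRG, 44.0 and 44.7 in bIP and 44.7 and 43.9 in N, and was called higher in both, by 0.23 ± 0.07 (adjusted p = 0.04) and 0.22 ± 0.07 (adjusted p = 0.026). Whether the SOX4 start differs between radial glia and the later populations therefore turns on the scale.

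The second region listed under SOX4, SOX4 region 38 at chr6:24503196-24506007, lies 5.71 kb below the start and was the more open of the pair. It gave 73.7 and 66.9 CPM in aRG, 65.4 and 59.6 in bRG, 69.1 and 71.4 in bIP and 58.6 and 56.6 in N. Both N libraries lay below all other libraries. The region was called lower in N than in aRG, by -0.29 ± 0.08 (adjusted p = 0.0085), and lower than in bIP, by -0.29 ± 0.08 (adjusted p = 0.014). Neither call held in DESeq2, where the adjusted p-values were 0.064 and 0.1, or without the second N library (0.058 and 0.088), the first was also lost without the first aRG library (0.076), and with abundance-dependent loess scaling the N minus aRG difference turned to 0.12. Summed into 1 SOX4 locus, which here means all regions listed under a protein-coding gene within 50 kb, the 2 regions gave mean CPM of 119 ± 0.0379 in bIP, 105 ± 2.69 in N, 102 ± 4.62 in aRG and 100 ± 5.04 in bRG (SD, n = 2, locus scale).

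On the locus scale the SOX4 locus was thus most open in bIP, in both libraries, and the other 3 populations overlapped. That scale moves bIP minus aRG up by 0.22. On the scale set by all regions the bIP and aRG libraries overlapped at both regions of the locus, and neither region was called between them. Whether the locus was most open in bIP therefore also turns on the scale. The bIP locus was called higher than that of bRG, by 0.25 ± 0.08 on the log2 scale (adjusted p = 0.037), with 28.1% of all loci called in this comparison. Against aRG the difference was 0.22 ± 0.08 (adjusted p = 0.053), which DESeq2 called at 0.23 (adjusted p = 0.038), and N lay -0.18 ± 0.08 from bIP (adjusted p = 0.11). The bIP minus bRG call was lost without the second aRG library, either bRG library or either bIP library, at values of 0.20 to 0.30, and in the fit of these 2 populations alone (adjusted p = 0.053). Of all 14187 loci, 146 had a higher mean CPM than the SOX4 locus.

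SOX11 region 50, picked as the member with the highest total count of its window, was least open in neurons. It gave 85.4 and 73.5 CPM in aRG, 72.8 and 66.2 in bRG, 55.7 and 68.3 in bIP and 48.1 and 53.1 in N. Both N libraries lay below the 6 others, while aRG, bRG and bIP overlapped in part. It fell from aRG to N by 0.65 on the log2 scale (SE 0.11, adjusted p = 0.00019) and from aRG to bIP by 0.36 (SE 0.11, adjusted p = 0.018), the second call being lost in DESeq2 (adjusted p = 0.14) and without the first aRG or the first bIP library (adjusted p = 0.16 each). On the locus scale the means were 72.3 ± 7.62, 68.3 ± 3.38, 65.8 ± 7.57 and 53.2 ± 3.18 CPM in aRG, bRG, bIP and N (SD, n = 2). There N minus aRG stayed called at -0.44 ± 0.11 (adjusted p = 0.0079), and so did N minus bRG at -0.36 (adjusted p = 0.02, lost at -0.31 without the first bRG library and at -0.34 without the first N library), but not bIP minus aRG at -0.14 (adjusted p = 0.38) or N minus bIP at -0.31 (adjusted p = 0.063). DESeq2 did call the latter, at -0.34 (adjusted p = 0.029), as did edgeR without the first aRG library (-0.34) or the first bIP library (-0.42). Levels of the SOX4 and SOX11 starts were not compared with each other, since the regions differ in width.

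**Figure D1:**
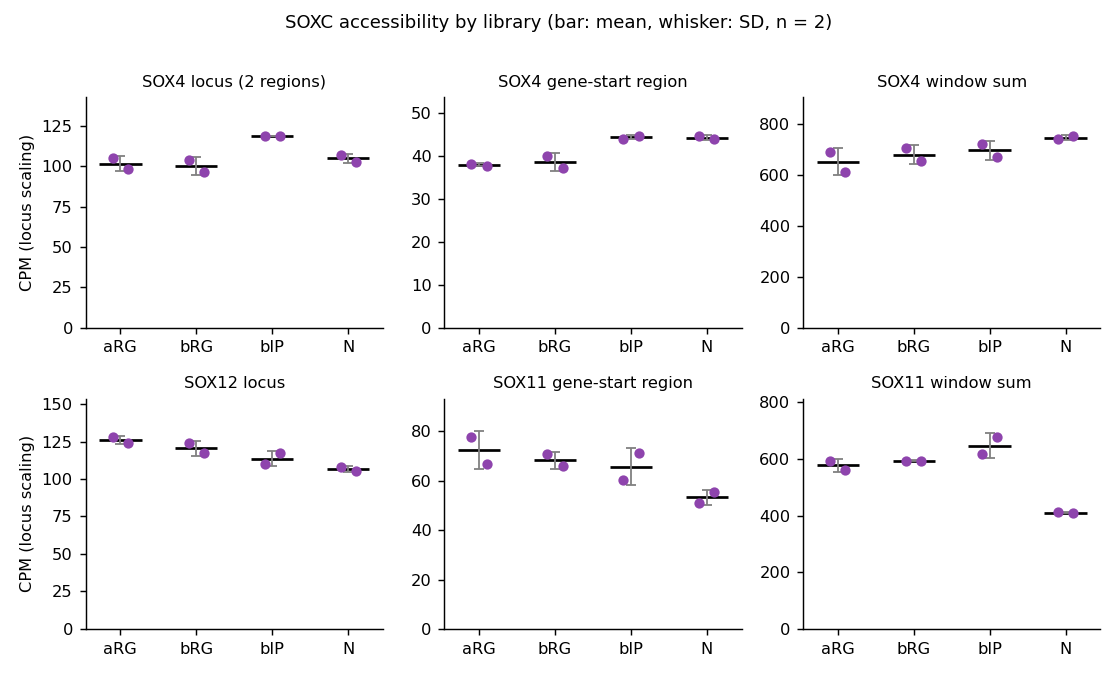
CPM on the locus scale for each library (points), with the mean (bar) and SD (whisker, n = 2), in aRG, bRG, bIP and N. The SOX4 locus stood at 119 in both bIP libraries, and the SOX11 gene-start region and window sum were lowest in N.

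On the locus scale, counts summed over the whole window were called lower in N for SOX11 and were not called between any pair for SOX4. The SOX4 window gave 687 and 612 CPM in aRG, 704 and 652 in bRG, 721 and 669 in bIP and 738 and 752 in N on the locus scale. Only the N libraries lay above all others, and no pair was called (N minus aRG 0.20 ± 0.10, adjusted p = 0.11). The SOX11 window gave 593 and 561 CPM in aRG, 593 and 594 in bRG, 616 and 677 in bIP and 411 and 408 in N. It fell in N against aRG by 0.49 (SE 0.09, adjusted p = 0.0015) and against bIP by 0.66 (SE 0.09, adjusted p = 0.0013). With loess scaling these became 0.09 and -0.12, neither called, so the direction against aRG flipped, while the SOX4 window rose in N by 0.83 against aRG. No single locus of the 14187 had a mean CPM as high as either window sum, so both stood at the edge of the range over which loess scaling is estimated. On the scale set by all regions the mean sums were 714, 689, 654 and 708 CPM for SOX4 and 634, 603, 610 and 389 for SOX11 in aRG, bRG, bIP and N. The gene-start region held 5.95% of the counts of the SOX4 window and 11.7% of those of the SOX11 window, and without its start region the SOX11 window differed by -0.50 ± 0.08 in N minus aRG (adjusted p = 0.0012).

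The SOX4 sum, uncalled between all pairs, held members that moved in opposite directions. The 55 SOX4 members called higher in N than in aRG summed to 84.1 CPM in aRG, and bRG gave 92.8, bIP 235 and N 378. The 34 called lower summed to 505, 476, 275 and 196 CPM in the same order. For SOX11, 27 members called higher rose from 31.1 CPM in aRG to 114 in N, and 42 called lower went from 516 to 190. These sets were picked by the calls themselves, so the sums describe them and test nothing. In both windows the bIP sums lay between those of aRG and N, apart from the SOX11 members called higher, which stood at 120 CPM in bIP.

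The step from apical radial glia to intermediate progenitors opened and closed similar numbers of regions around both genes. Of the tested members, 37 of 126 SOX4 regions were called higher in bIP and 29 lower, and 32 of 96 SOX11 regions higher and 23 lower, with 47.2% of all regions called, 24.5% higher and 22.6% lower. In shares this was 29.4% higher and 23% lower for SOX4 and 33.3% and 24% for SOX11. The median log2 fold change was 0.25 for SOX4 and 0.22 for SOX11 members, and 0.05 over all regions. Without the first bIP library fewer SOX4 members were called in both directions and fewer SOX11 members lower. The same held for the SOX4 members without the first aRG library. In both fits fewer of all regions were called as well.

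The step from intermediate progenitors to neurons differed more between the windows. In N minus bIP, 37 SOX4 regions were called higher and 29 lower, that is 29.4% and 23%, against 25% and 22.6% of all regions (47.6% called in all). Of the SOX11 regions 8 were called higher and 42 lower, that is 8.33% and 43.8%. The medians were 0.07 for SOX4, -0.72 for SOX11 and -0.01 for all regions. Without the second bIP library fewer SOX4 and SOX11 members were called higher, and without the second N library fewer SOX4 members were. In both fits fewer of all regions were called higher as well. Over both steps, N minus aRG called 55 SOX4 regions higher and 34 lower and 27 SOX11 regions higher and 42 lower. All regions gave 69% called, 37.2% higher and 31.7% lower, and the medians were 0.43, -0.26 and 0.13. These comparisons share libraries, so their counts are given side by side only, and no test set one window against the other.

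Basal radial glia could not be told from apical radial glia at any member. In bRG minus aRG no member and none of all tested regions was called (0%) by edgeR or DESeq2. At an unadjusted p under 0.05, edgeR gave 3 SOX4 and 1 SOX11 regions and 5232 of all regions, and DESeq2 gave 1, 0 and 2331. Member fold changes ranged from -1.33 to 1.29 for SOX4 and from -0.69 to 1.30 for SOX11 on the log2 scale. Against bRG in place of aRG, bIP had 32 SOX4 regions called higher and 26 lower and 33 SOX11 regions higher and 22 lower (42.9% of all regions called). Each of those counts was lower without the first bIP library or either bRG library, and so was the number of all regions called. Neurons against bRG had 53 and 33 for SOX4 and 28 and 38 for SOX11 (67.9% of all regions called).

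**Figure D2:**
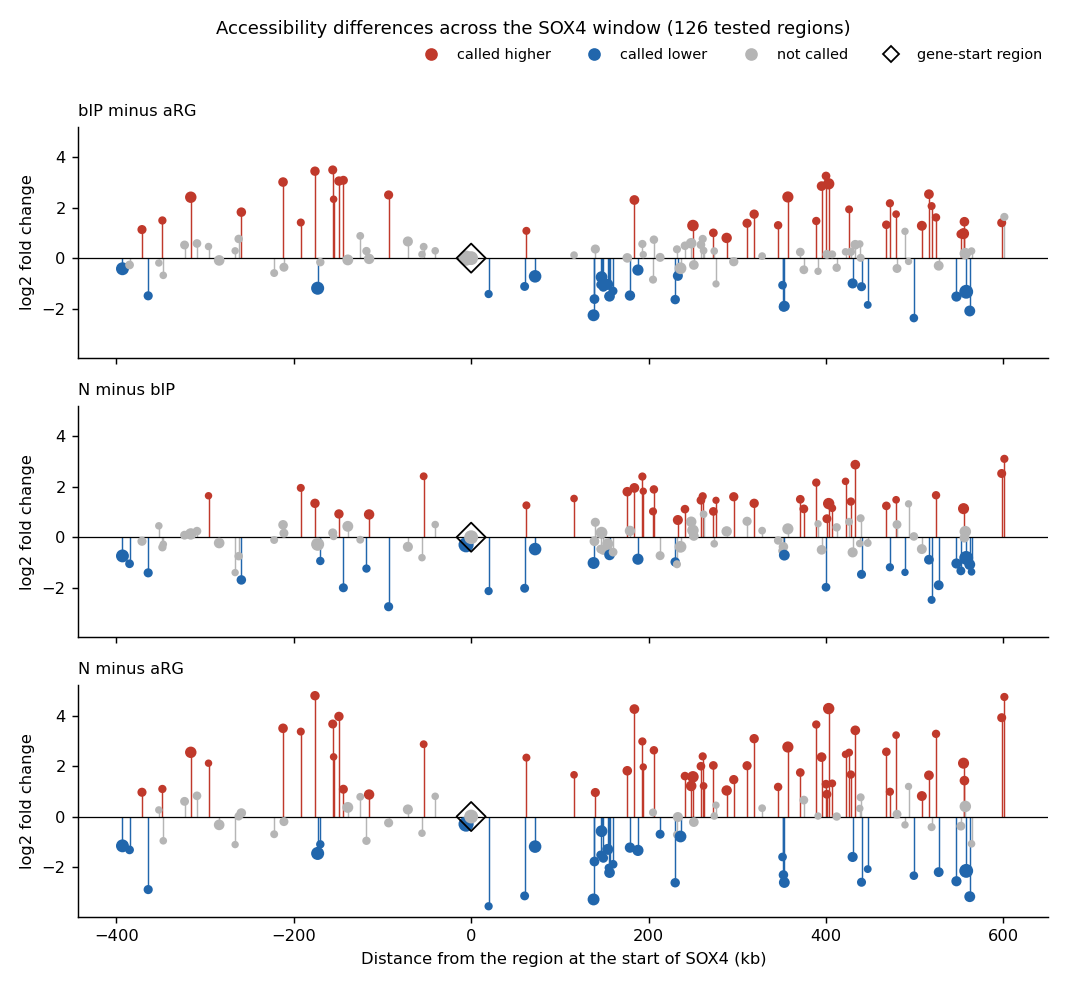
Log2 fold change of each tested SOX4 member (y) by distance in kb from the gene-start region (x), for 3 pairs of populations. Point size grows with mean CPM and colour gives the call, and regions called higher and lower in N than in aRG lie on both sides of the uncalled start. The longest run of calls in 1 direction there held 12 regions called higher, 241 to 346 kb above the start.

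**Figure D3:**
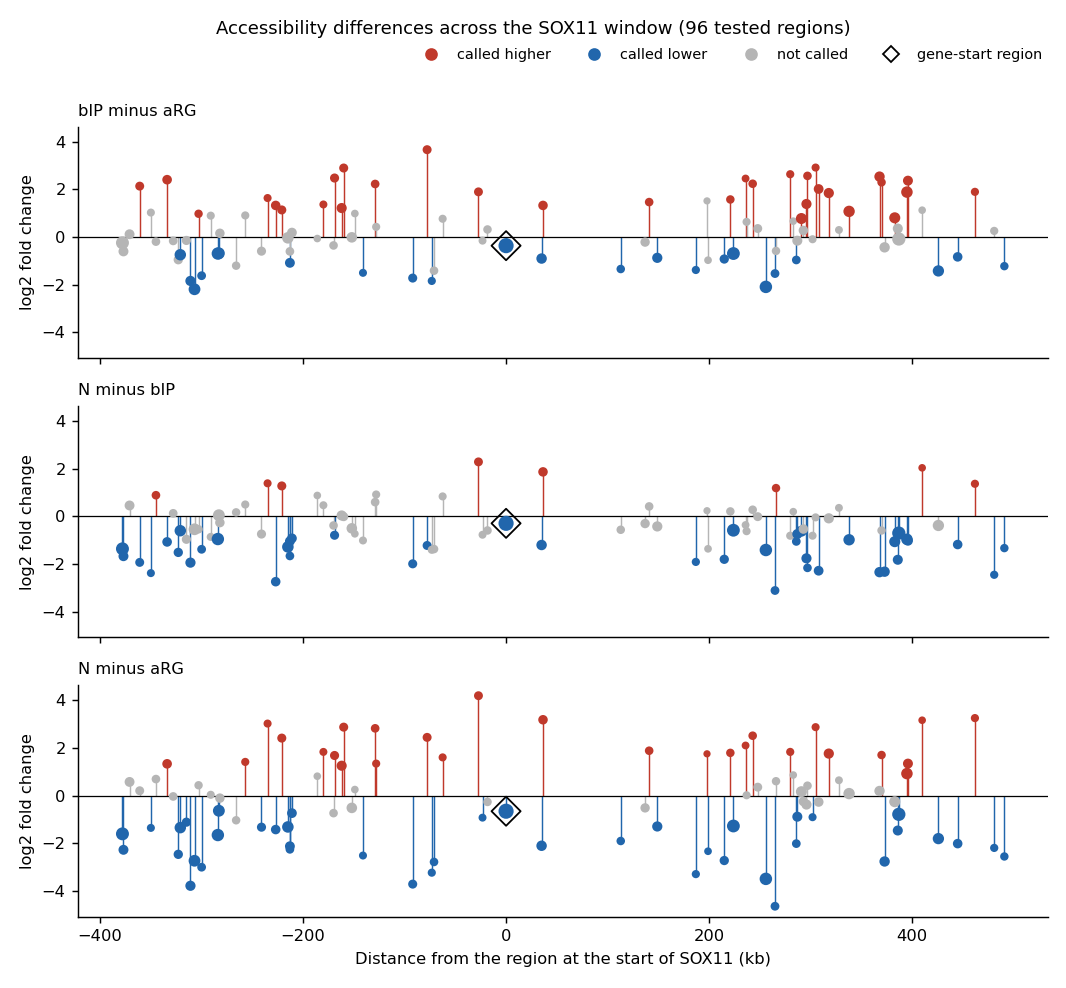
The same for the SOX11 window. In N minus bIP 42 of 96 tested regions were called lower and 8 higher, and lower calls lay on both sides of the gene start.

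Sorting tested members by their calls among aRG, bIP and N showed where along the sequence they changed. In the SOX4 window the commonest called pattern was a rise at the last step alone, with 19 regions (15.1%, against 14.5% of all regions). Another 15 SOX4 regions rose at the first step alone (8.87% of all regions), and 14 rose at both (8.57% of all regions). In the SOX11 window 1 region rose at the last step alone (1.04%), 12 at the first step alone and 5 at both. Regions that fell at the last step alone numbered 4 for SOX4 (3.17%) and 12 for SOX11 (12.5%), with 5.75% of all regions. Regions that fell at both steps numbered 14 for SOX4 and 16 for SOX11 (9.86% of all regions). Calls between aRG and N with neither step called were 3 higher and 2 lower for SOX4 and 4 higher and 6 lower for SOX11 (3.66% and 4.61% of all regions). Only 1 SOX4 region and no SOX11 region was lower in bIP than in both aRG and N (0.791% of all regions), and 6 and 3 held some other call with N not different from aRG (4.72%).

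A further 14 SOX11 regions (14.6%) and 8 SOX4 regions (6.35%) were called higher in bIP than in both aRG and N, which 5.82% of all regions were. Over every scaling, filter, tool and left-out library tried, this count lay between 10 and 17 for SOX11 and between 6 and 9 for SOX4. Of the 14 SOX11 regions, 9 lay 290 to 400 kb above the start, a stretch with 18 tested members that was picked out after its values were seen. Those 9 summed to 45.6 and 55.4 CPM in aRG, 50.0 and 62.1 in bRG, 133 and 151 in bIP and 63.1 and 57.4 in N.

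**Figure D4:**
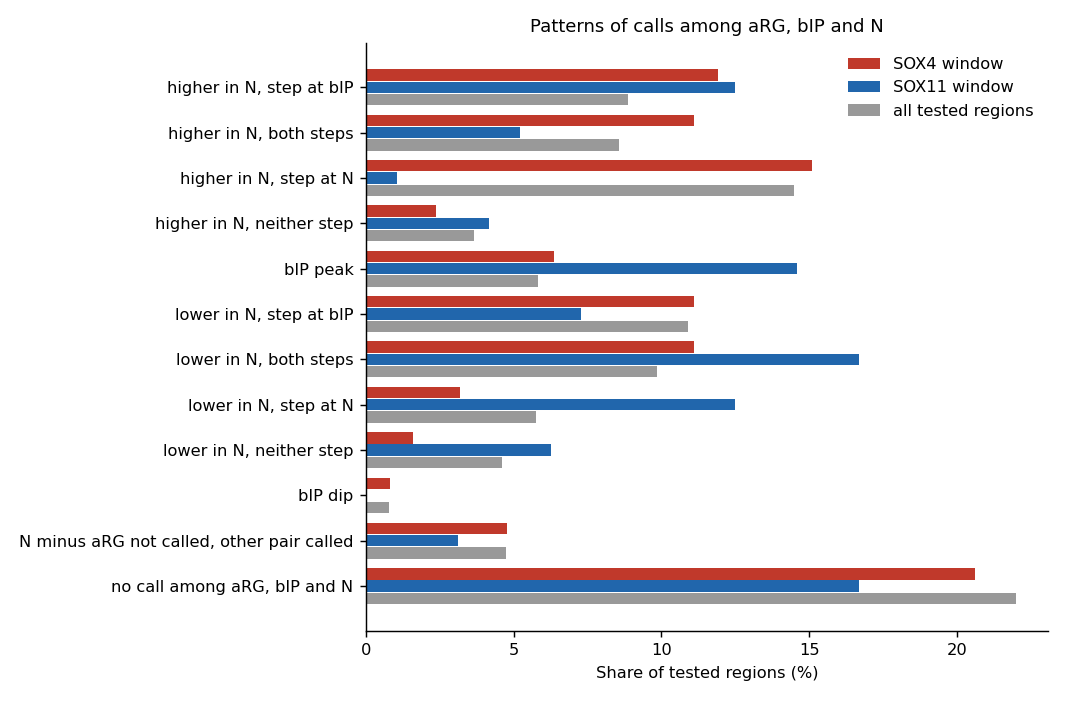
Share of tested regions (x, percent) in each pattern of calls among aRG, bIP and N, for 126 SOX4 members, 96 SOX11 members and all tested regions. The SOX11 bars stand at 14.6% for regions highest in bIP and at 1.04% for regions that rose at the last step alone.

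Among the SOX4 members that opened in neurons, SOX4 region 97 at chr6:24912744-24914389 was the strongest by level. It lies 403 kb above the start and is listed under the pseudogene RN7SKP240. It gave 1.52 and 2.18 CPM in aRG, 2.52 and 2.34 in bRG, 16.5 and 11.9 in bIP and 36.3 and 35.7 in N. The populations did not overlap from radial glia to bIP to N, and it rose by 4.28 ± 0.25 from aRG to N (adjusted p = 7.6e-08). SOX4 region 22, 176 kb below the start at chr6:24333759-24334387, had the top fold change of the window at 4.79 ± 0.38 (adjusted p = 5.6e-07), from 0.391 and 0.335 CPM in aRG through 4.31 and 3.68 in bIP to 8.30 and 12.1 in N. SOX4 regions 131 and 132, 598 and 601 kb above the start at the window's upper end, opened mainly at the last step, region 131 from 1.63 and 1.26 CPM in bIP to 9.20 and 7.52 in N. SOX4 region 132 gave 2.32 and 5.49 CPM in the N libraries and at most 0.507 in any other library. SOX4 region 105 was called higher in N than in bIP by 2.88 ± 0.53 (adjusted p = 0.00086), but its N libraries differed widely, at 5.88 and 22.4 CPM, against 1.49 and 2.34 in bIP.

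SOX4 region 25, 156 kb below the start, opened at the first step and then held its level. It gave 0.508 and 0.335 CPM in aRG, 5.94 and 3.68 in bIP and 6.32 and 4.54 in N, and rose from aRG to bIP by 3.49 ± 0.42 (adjusted p = 4.7e-05). The bIP and N libraries overlapped.

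Transient SOX4 regions were open mainly in intermediate progenitors. SOX4 region 33, at chr6:24416668-24417889 and 93 kb below the start near LINC00581, gave 1.95 and 0.964 CPM in aRG, 1.20 and 1.26 in bRG, 8.81 and 7.77 in bIP and 1.30 and 1.18 in N. It rose by 2.50 ± 0.34 in bIP against aRG (adjusted p = 0.00011) and fell from bIP to N by 2.74 (SE 0.35, adjusted p = 9.1e-05). The bIP libraries stood clear of all others, and aRG, bRG and N overlapped. SOX4 region 28, 144 kb below the start, peaked at 7.07 and 7.70 CPM in bIP and gave at most 2.35 elsewhere. SOX4 region 95 gave 4.13 and 7.16 CPM in bIP and ends 2410 bp before SOX4 region 97, which rose on into neurons. SOX4 region 120 gave 2.25 and 2.72 CPM in bIP and at most 0.88 elsewhere.

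The most open SOX4 region that closed was SOX4 region 128, at chr6:25068042-25069173, 558 kb above the start and listed under NBAT1. It gave 68.3 and 62.6 CPM in aRG, 60.2 and 61.2 in bRG, 21.6 and 30.4 in bIP and 13.6 and 16.1 in N. Both steps were called, and it fell from aRG to N by 2.14 (SE 0.15, adjusted p = 2.6e-07). SOX4 region 129, also listed under NBAT1, went from 22.5 and 16.0 CPM in aRG to 1.86 and 2.47 in N. SOX4 region 45, 138 kb above the start, went from 33.6 and 30.5 CPM in aRG to 5.22 and 8.16 in bIP and 3.38 and 3.25 in N. In all 3 regions the radial glia libraries lay above every bIP library and these above every N library. SOX4 region 40 had the lowest N minus aRG value of the window, -3.54 ± 0.50 (adjusted p = 3.8e-05), at low levels of 2.34 and 1.76 CPM in aRG and 0.186 and 0.157 in N. SOX4 region 117 closed at the first step, from 3.83 and 2.35 CPM in aRG to 0.544 and 0.651 in bIP, and gave 0.495 and 0.744 in N.

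In the SOX11 window the clearest closing region was SOX11 region 68, at chr2A:5908391-5909679, 256 kb above the start and listed under SILC1. It gave 43.6 and 40.8 CPM in aRG, 38.3 and 36.4 in bRG, 7.94 and 11.9 in bIP and 3.81 and 3.68 in N. No 2 of radial glia, bIP and N overlapped, and the region fell from aRG to N by 3.49 (SE 0.19, adjusted p = 5.6e-08). SOX11 region 69, which starts 7319 bp beyond its end and is listed under MIR7158, had the lowest N minus aRG value at -4.64 ± 0.74 (adjusted p = 0.0001), from 2.89 and 4.19 CPM to 0.155 and 0.118, with bIP libraries that differed at 0.399 and 2.07. SOX11 region 42 went from 5.55 and 4.44 CPM in aRG to 0.465 and 0.274 in N.

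The longest run of SOX11 members called in 1 direction in N minus aRG lay toward the lower end of the window. It was picked after its values were seen. Of all tested SOX11 members 43.8% were called lower in N than in aRG. The SOX4 window held longer runs, of 12 and 11 members called higher. Between chr2A:5328874 and chr2A:5370218, over 41.3 kb, 8 members called lower in N than in aRG followed one another, with no member called higher between them, at changes of -3.78 to -0.63 on the log2 scale. The 10 regions of this stretch, 2 of them not called, summed to 129 CPM in aRG, and bRG gave 119, bIP 65.7 and N 42.5. SOX11 region 12 in it went from 15.0 and 9.17 CPM in aRG to 0.96 and 0.784 in N. SOX11 region 13 gave 30.3 and 27.3 CPM in aRG and 27.1 in each bRG library, then 4.31 and 8.31 in bIP and 3.07 and 5.68 in N, so that bIP and N overlapped.

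A pair of highly open SOX11 regions kept their level to bIP and fell only in neurons. SOX11 region 1, at the window's lower edge, gave 39.3 and 34.3 CPM in aRG, 27.7 and 34.7 in bIP and 13.7 and 10.5 in N, and fell from bIP to N by 1.36 (SE 0.15, adjusted p = 5.3e-05). SOX11 region 90, 387 kb above the start, gave 39.0 and 36.9 CPM in aRG, 34.4 and 37.4 in bIP and 23.0 and 21.1 in N, and fell from bIP to N by 0.70 (SE 0.11, adjusted p = 0.00033). Both were overlapped by a peak in all 4 peak lists. SOX11 region 97 did the same at a low level, from 1.70 and 1.72 CPM in bIP to 0.341 and 0.274 in N.

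Regions highest in intermediate progenitors included several distal members of the SOX11 window. SOX11 region 85, at chr2A:6019592-6021391 and 368 kb above the start, gave 3.09 and 3.69 CPM in aRG, 1.82 and 4.24 in bRG, 14.9 and 24.6 in bIP and 3.78 and 4.00 in N. It rose in bIP by 2.54 ± 0.38 (adjusted p = 0.0002) and fell to N by 2.34 (SE 0.37, adjusted p = 0.00035). SOX11 region 81, at 308 kb, gave 11.5 and 11.7 CPM in bIP and at most 3.32 elsewhere. SOX11 region 78, at 297 kb, gave 4.93 and 4.56 CPM in bIP and at most 1.21 elsewhere. SOX11 region 24, below the start, gave 6.71 and 10.8 CPM in bIP against 2.70 and 4.27 in aRG and 1.27 and 1.33 in N, and its bIP minus aRG call was lost without the first aRG library (adjusted p = 0.094) or the second bIP library (adjusted p = 0.088).

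SOX11 region 43, 77.8 kb below the start, had the top bIP minus aRG value of the window at 3.67 ± 0.44 (adjusted p = 4.5e-05), from 0.586 and 0.461 CPM in aRG to 7.97 and 5.51 in bIP, with 3.72 and 2.04 in N. SOX11 regions 35 and 80 also opened at the first step, and their bIP and N libraries overlapped. Region 35 gave 5.26 and 4.48 CPM in bIP and 6.13 and 3.49 in N. Region 80 reached 2.17 CPM at most.

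Only 8 SOX11 members were called higher in N than in bIP, and 2 of the 27 called higher in N than in aRG flanked the gene start. SOX11 region 47, at chr2A:5624949-5626012 and 27.2 kb below the start, gave 0.469 and 0.335 CPM in aRG, 0.47 and 0.509 in bRG, 1.74 and 1.30 in bIP and 7.40 and 7.56 in N. It rose from aRG to N by 4.20 ± 0.36 (adjusted p = 9e-07) and from bIP to N by 2.29 ± 0.30 (adjusted p = 0.00011). SOX11 region 52, 36.4 kb above the start, gave 1.21 and 1.17 CPM in aRG, 3.84 and 2.14 in bIP and 8.02 and 13.9 in N. Both stand out against the start region between them, which fell. SOX11 regions 93 and 96, toward the upper end, also rose in N, to 0.96 and 1.68 CPM and to 2.76 and 3.13 CPM.

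Some neighbouring members called in opposite directions lay close together, though the gaps between such neighbours ran from 395 to 75674 bp. SOX11 region 51 ends 395 bp before SOX11 region 52. It gave 10.3 and 12.5 CPM in aRG and 2.54 and 2.78 in N, a fall of 2.10 on the log2 scale (adjusted p = 1.5e-05), where its neighbour rose by 3.19 ± 0.38 (adjusted p = 1.2e-05). SOX4 regions 41 and 42, 1102 bp apart, changed by -3.13 and 2.34 from aRG to N. SOX4 regions 88 and 89, 2353 bp apart and both listed under CASC15, changed by -2.60 and 2.76. Region 88 went from 16.8 and 16.9 CPM in aRG to 2.35 and 3.25 in N, and region 89 from 3.32 and 3.60 CPM to 26.0 and 20.8. These pairs were picked after their values were seen, from those with small gaps.

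**Figure D5:**
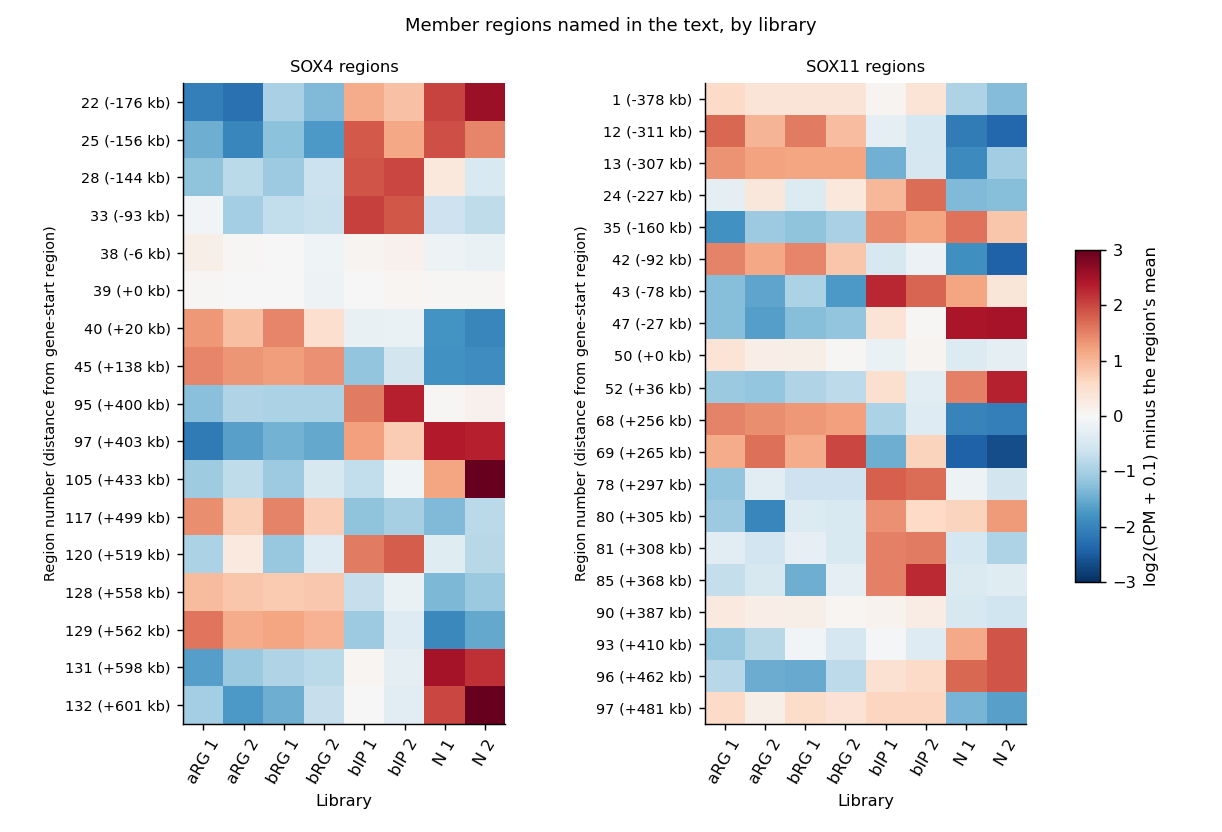
Members named by rule, with libraries as columns and regions as rows in order of distance from the gene start. Colour gives log2(CPM + 0.1) minus the region's mean over the 8 libraries, and the gene-start rows (39 for SOX4, 50 for SOX11) are nearly white across all libraries while distal rows change by up to several log2 units.

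Calls were spread over both sides of each start. Below the SOX4 start, 13 of 36 tested regions were called higher and 6 lower in N than in aRG, and above it 42 of 89 higher and 28 lower (37.2% of all regions higher and 31.7% lower). Below the SOX11 start, 13 of 48 were called higher and 22 lower, and above it 14 of 47 higher and 19 lower. Within 100 kb of the starts the median N minus aRG value was -0.24 for 11 tested SOX4 regions and -0.65 for 11 SOX11 regions. Beyond 300 kb it was 0.82 for 59 SOX4 regions and -0.26 for 35 SOX11 regions.

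The authors' consensus peak lists, 1 per population and so without replicate spread, were set beside the counts. Of the SOX4 regions, 45 were overlapped by at least 1 bp of a peak from the aRG list, 46 by one from bRG, 46 from bIP and 47 from N, that is 34.1% to 35.6%. SOX11 regions had 47, 48, 52 and 36, that is 48%, 49%, 53.1% and 36.7%. Over all regions the shares were 37.7%, 39.2%, 37.4% and 38.1%. The SOX11 window therefore held fewest peaks in N, the population in which its summed counts were lowest. In N alone a peak overlapped 18 SOX4 and 8 SOX11 regions (13.6% and 8.16%, against 11.3% of all regions), and in bIP alone 8 and 9 (6.06% and 9.18%, against 4.54%). All 4 lists had a peak over both gene-start regions, of which that of SOX11 was picked by its high count. No peak lay over 49 SOX4 regions (37.1%) and 20 SOX11 regions (20.4%), against 35.6% of all regions.

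The members were also set beside all regions for identifiers and width. All 132 SOX4 regions and 97 of 98 SOX11 regions carry identifiers in human, chimpanzee and gorilla, against 94.1% of all regions. Human coordinates were needed to enter a window and a chimpanzee identifier to be analysed, so only the gorilla identifier was left free. Median widths were 954 bp for SOX4, 883 bp for SOX11 and 858 bp for all regions. Median mean CPM was 2.27 for SOX4 and 2.58 for SOX11 members, with 6 regions above 20 CPM in each window.

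Among the other SOX genes, SOX12, the third SOXC member, was also least open in neurons. Its locus gave 128 and 124 CPM in aRG, 124 and 117 in bRG, 110 and 117 in bIP and 108 and 105 in N, and fell from aRG to N by 0.24 (SE 0.07, adjusted p = 0.025), where 53.3% of all loci were called. Neurons were not called against bRG (-0.17 ± 0.07, adjusted p = 0.087) or bIP (-0.09 ± 0.07, adjusted p = 0.38). SOX2, the SOXB1 factor that keeps cells in the progenitor state, fell from 112 and 95.7 CPM in aRG to 52.0 and 59.5 in bIP and 23.1 and 19.6 in N, by 2.28 in N minus aRG (SE 0.12, adjusted p = 1e-05). SOX9, a SOXE factor of radial glia and glial cells, fell from 90.0 and 83.4 CPM in aRG to 57.9 and 55.8 in N, by 0.61 (SE 0.07, adjusted p = 0.0002). Of 15 tested SOX loci outside SOXC, 9 were called lower in N than in aRG and 1, SOX6, higher, with a median of -0.93 against 0.03 over all loci. Both tested SOXB1, both SOXB2 and all 3 SOXE loci were among the 9. The largest changes were those of SOX30 (-3.88), SOX8 (-2.62) and SOX10 (-2.48). SOX4 was not called in that comparison.

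Genes that induce SOXC factors or work with them moved both ways. Of 15 such loci, 7 were called higher in bIP than in aRG and 3 lower (31.2% of all loci called). In N minus aRG 5 were called higher and 6 lower, where 27.6% of all loci were called higher and 25.7% lower. NEUROD2, a factor of cortical excitatory neurons, rose by 2.96 ± 0.12 from aRG to N (adjusted p = 8e-06), from 20.1 to 157 CPM. NEUROG2, a proneural factor, fell by 2.19 (SE 0.44, adjusted p = 0.0031), from 6.58 to 1.42 CPM, and NEUROD1 rose by 1.35 ± 0.15 (adjusted p = 0.00014). EOMES, the mouse partner of Sox4, rose in bIP by 0.72 ± 0.16 (adjusted p = 0.0092) and fell again in N by 1.00 (adjusted p = 0.0029). In N minus bIP 1 of the 15 was called higher and 7 lower (13.6% and 15.1% of all loci).

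Genes reported as bound or activated by SOX4 or SOX11 in neural cells of other species showed no common direction against aRG, but more were called lower than higher from bIP to N. Of 22 tested, 8 were called higher and 3 lower in bIP than in aRG, and 9 higher and 7 lower in N than in aRG (31.2% and 53.3% of all loci called), with a median of 0.02 against 0.03 over all loci. NEFL and STMN2, which encode a neurofilament subunit and a microtubule regulator, rose in N by 1.71 ± 0.20 (adjusted p = 0.00018) and 1.59 ± 0.15 (adjusted p = 6.5e-05), and PRDM8 by 1.11 ± 0.27 (adjusted p = 0.0089). TUBB3, the neuronal tubulin gene often used as a SOXC target, gave 96.0, 98.4, 97.4 and 80.5 CPM in aRG, bRG, bIP and N and fell in N by 0.25 (SE 0.08, adjusted p = 0.024). In N minus bIP 1 of the 22 was called higher and 9 lower (13.6% and 15.1% of all loci), with a median of -0.21 against 0.01 over all loci. DCX and TEAD2 had no tested locus.

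Coding genes listed as neighbours of SOX4 and SOX11, most of them beyond the next coding gene, were mixed as well. Of 11 tested, 5 were called higher in N than in aRG and 2 lower, where 27.6% and 25.7% of all loci were. ALLC rose by 1.75 ± 0.17 (adjusted p = 6e-05), RSAD2 by 1.62 ± 0.30 (adjusted p = 0.002) and HDGFL1 by 1.34 ± 0.27 (adjusted p = 0.0033). CDKAL1, a next coding gene of SOX4, rose from 20.4 CPM in aRG to 41.9 in bIP by 1.03 ± 0.12 (adjusted p = 0.00056). It was also called higher in N than in aRG, by 0.70 ± 0.13 (adjusted p = 0.0017). The next coding genes PRL (-0.19 ± 0.23, adjusted p = 0.5) and CMPK2 (-0.32 ± 0.16, adjusted p = 0.13) were not called in N minus aRG. DCDC2C was not in the list.

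Loci with a profile over the 8 libraries most like that of the SOX4 locus were PAK5, TBPL1, TMEM18, PRR36 and SMARCD2, with root mean square differences of centred log2 CPM from 0.028 to 0.041. PAK5, the closest, gave 43.3, 42.7, 51.0 and 44.4 CPM in aRG, bRG, bIP and N. For the SOX11 gene-start region the first 4 were ABI2, TSHZ3, GPC5 and ELOVL6, from 0.046 to 0.054, and ABI2 gave 46.9, 43.6, 40.1 and 33.6 CPM. These rank lists describe likeness over 8 libraries and depended on the measure: by Pearson correlation none of the 5 most alike stayed for SOX4, and for SOX11 ABI2 alone stayed.

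Marker loci of other cell types that an organoid sort could hold moved with N as well. Inhibitory neuron markers (DLX1, DLX2, DLX5, DLX6, GAD1, GAD2 and LHX6) summed to 224 to 261 CPM in aRG and 126 to 135 in N, with 4 of 7 called lower (25.7% of all loci). Choroid plexus markers summed to 48.2 to 53.4 CPM in aRG and 27.8 to 40.1 in N, with 2 of 4 called lower, and mesenchymal and vessel markers to 124 to 157 and 85.9 to 104, with 2 of 4. CSF1R was the only microglial marker locus tested, at 5.97 and 5.99 CPM in aRG and 10.1 and 8.80 in N, and was called higher there by 0.67 (adjusted p = 0.014). Their part in the SOX4 and SOX11 values was not tested, and in bulk samples fewer cells with an open region and less opening per cell cannot be told apart.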

How the data were processed

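The authors deposited unscaled whole-number read counts per region for 8 libraries, with human, chimpanzee and gorilla identifiers and a closest gene with its distance, per the file headers. They also deposited 1 consensus peak list per population, from which intervals and −log10 q-values were used, per the narrowPeak layout of the deposited files. Tools and builds named in the submitters' processing notes are MACS2, bcl2fastq 2.20.0, hg38 and panTro6. For the aligner, the matching of regions between species, the pooling of replicates for peaks and the build of the gene distances, nothing was given in the sources used here.

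Of 218080 rows, 6725 without a chimpanzee identifier, all with a count of 0, and 7 repeated identifiers were removed, leaving 211348 regions. Region starts were read as counted from 0 (54881 matches to peak starts, against 11 otherwise) and are printed from 1. Loci are sums of counts over regions listed under a protein-coding gene within 50 kb (14187 loci, symbols from NHGRI_mPanTro3-v2.0, names only). No region was listed under SOX11, so the member with the highest total count in its window was taken as its gene-start region. It was put into the locus fit in place of the planned locus. That choice and the window sums were added after the data were seen. edgeR 4.0.16 in R 4.3.3 (quasi-likelihood F-test, robust, TMM, filterByExpr, prior count of 2 for log2 CPM) fitted population as the single term to all 8 libraries, once over 198227 regions (13121 filtered out) and once over 14067 loci. Region values and locus values carry separate TMM factors, called the region scale and the locus scale. The fit had 4 residual degrees of freedom. Benjamini-Hochberg adjustment ran over each whole table. Confidence from 2 libraries a population is limited. On simulated counts for N minus aRG, the test called 1 of 67 regions changed by 2-fold and 47 of 66 changed by 4-fold among 195159 regions. Among 14040 loci it called 60 of 67 and 66 of 66. Few regions were changed in the simulation, while 69% of regions were called in the data. The adjustment is stricter where few regions change, so these rates do not carry over to the data. DESeq2 1.42.0, median-ratio and loess scaling, no filter, a replicate block, fits of 2 populations, other locus widths, stricter peaks and leaving out each library were the alternatives.

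Named regions are those touching the gene start, the 3 highest and 3 lowest called fold changes of bIP minus aRG, N minus bIP and N minus aRG, the 3 most open and the 3 clearest bIP maxima of each window. Listed loci are named where they hold the 3 largest changes of their list. A few others (EOMES, TUBB3, CDKAL1, PRL, CMPK2, SOX4 regions 41, 42, 88 and 89, SOX11 region 51) were named after their values were seen. The members and lists were chosen with earlier results of these data known. For the loci most like the SOX11 start, 1 of 5 is not reported here.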

Additional observations from a re-analysis of the deposited data

How the results depend on the processing

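Which calls held depended mainly on the scaling and on single libraries. Under loess scaling the SOX11 window sum gave 0.09 in N minus aRG, 0.08 in N minus bRG and -0.12 in N minus bIP, all uncalled, and the SOX4 window sum was called at 0.83, 0.80 and 0.69. Loess also called the SOX4 locus at 0.24 in bIP minus aRG, 0.23 in N minus aRG and 0.25 in N minus bRG, and moved SOX4 region 38 to 0.12 in N minus aRG and SOX11 region 50 to 0.02 in bIP minus aRG. The cause was not tested. The SOX4 locus in bIP minus aRG was also called with median-ratio scaling and DESeq2 (0.23 each), without the filter (0.22) and with a 10 kb locus (0.24). From the region at distance 0 alone it was called at 0.28, with 0.29 in N minus aRG and 0.24 in N minus bRG, while bRG minus aRG was 0.05 and N minus bIP 0.01. Its bIP minus bRG call (0.25) was lost in the fit of 2 populations. SOX11's start region on the locus scale was called in N minus bIP at -0.34 with median-ratio scaling, DESeq2 and no filter. Without the regions listed under SOX4, the SOX4 window sum was -0.00 in bIP minus bRG. On the scale set by all regions SOX4 region 39 lay near 0, at -0.01 in bIP minus aRG with median-ratio scaling and DESeq2, and in N minus aRG at -0.09 with both, -0.00 without the filter and -0.10 with 2 populations. With a log2 fold change of at least 1 required, 19 SOX4 regions were called lower in N minus bIP (19.3% of all regions) and 13 SOX11 regions in bIP minus aRG (17.7%). Of the 2 regions listed under SOX4, 0 were called in either direction in any comparison, except 1 lower in N minus aRG and the same count of 1 in N minus bIP. By Pearson correlation 0 of the 5 loci most like SOX4 and 1 of those most like the SOX11 start stayed.

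With a replicate block, bIP minus aRG (0.22) and N minus bIP (-0.18) of the SOX4 locus, N minus aRG of the SOX4 window sum (0.20) and N minus bIP of the SOX11 start (-0.31) were called as well. Same-numbered libraries deviated together with correlations of 0.14 to 0.49, but with 2 numbers these share only a number.

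Leaving out 1 library gave, for the SOX4 locus, -0.08 to 0.01 in bRG minus aRG, -0.03 to 0.04 in N minus aRG, 0.20 to 0.30 in bIP minus bRG and -0.01 to 0.12 in N minus bRG. The SOX4 window sum gave -0.02 to 0.13 in bRG minus aRG and -0.02 to 0.09 in bIP minus bRG. SOX11's start on the locus scale gave -0.18 to 0.02 in bRG minus aRG, -0.17 to 0.06 in bIP minus bRG, -0.46 to -0.31 in N minus bRG and -0.42 to -0.22 in N minus bIP. SOX4 region 39 gave -0.06 to 0.04 in bIP minus aRG and -0.16 to 0.02 in N minus aRG. For pairs other than bRG minus aRG, the share of all regions called also fell wherever a library of a compared population was left out. Higher and lower SOX4 counts ranged from 22 to 39 and 17 to 29 in bIP minus aRG and from 20 to 32 and 14 to 27 in bIP minus bRG, and the higher count in N minus bIP from 18 to 36. SOX11 counts ranged from 12 to 25 lower in bIP minus aRG, 20 to 34 higher and 10 to 24 lower in bIP minus bRG, and 4 to 9 higher in N minus bIP. With 2 libraries a population, on simulated counts 1 of 67 regions changed by 2-fold was called, and 47 of 66 changed by 4-fold. Far fewer regions changed there than were called in the data, so these rates do not carry over. The fits meant for a SOX11 locus were not run, since no region is listed under SOX11.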
